A study of Homo sapiens with 5 samples.

Results

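Complement is a system of plasma and membrane proteins that marks and destroys microbes and damaged cells. C1R and C1S are serine proteases of the C1 complex, which starts the classical pathway by cleaving C4 and C2, and the resulting convertases cleave C3. Host cells hold the cascade back with secreted inhibitors, such as the C1 inhibitor SERPING1 and the protease CFI, and with the membrane proteins CD46, CD55 and CD59. Liver cells make most plasma complement, and fibroblasts are known to secrete some components locally.

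The 9 genes described here are C1R, C1S, C3, CFD, CFI, SERPING1, CD46, CD55 and CD59, which were chosen by name as components and regulators of complement. They were followed in total RNA of WI-38 cells, a line of human diploid fibroblasts from lung. The 5 libraries are cells at population doubling level (PDL) 55, cells given AUF1 siRNA, cells given HuR siRNA, cells given control siRNA, and cells at PDL 15. Per the labels the siRNA cells were also at PDL 15, and PDL counts the divisions of the culture, so PDL 55 is the late culture. AUF1 and HuR are proteins that bind AU-rich sequence in mRNA. Each group has 1 library. There are therefore no replicates and no p-values, every difference is between 2 libraries and not shown for 2 conditions, and in bulk RNA fewer cells of a type and less RNA per cell cannot be told apart.

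A gene's level is its FPKM (sequenced fragments per kilobase of a transcript, corrected for library size) summed over its annotated Ensembl transcripts, with the deposited 95% bounds summed likewise. The bounds cover the estimate within 1 library only. A mean over the 5 libraries of 1 FPKM or more was required, which 13360 genes met. Of the 9, C1R, C1S, C3, SERPING1, CD46, CD55 and CD59 met it, 7 in all, and CFD and CFI did not. Differences are log2 ratios of (FPKM + 1), which understate differences of low genes, taken relative to the median gene of the comparison. A gene is counted as apart at 2-fold or more.

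The control siRNA library stood apart from the rest. The coverage deposited for 1 FPKM, a relative measure of depth, was 0.300 there and 1.14 to 1.29 in the other 4, and 80.4% of its FPKM times length lay in transcripts assembled from reads, against 25.1% to 29%. Fibroblast markers summed to 1693 to 9801 FPKM per library, with 0 to 3 of 10 listed at 0, hepatocyte markers to at most 1.54 and epithelial markers to 2.03 to 10.5. Failed estimates count as 0 here, among them VIM and PDGFRA with control siRNA, the library of the 1693, and PDGFRA at PDL 15. VIM had 1090 to 2827 FPKM in the other libraries, and COL1A1 held 4959 of the 9801 with AUF1 siRNA. Blood and macrophage markers summed to 33.8 to 55.7, mostly CSF1R, CD163 and, in the siRNA libraries, CD68, with 1 to 4 of 7 at 0, and endothelial markers to 4.63 to 14.6, mostly TEK. Their part in the values below was not tested. HNRNPD, the gene of AUF1, had 20.3 FPKM with AUF1 siRNA and 61.2 with control siRNA (-1.73 on the log2 scale described above). ELAVL1, the gene of HuR, had 9.72 with HuR siRNA (bounds 8.59 to 10.8) and 11.8 with control siRNA (9.38 to 14.1), so its bounds overlap and the knockdown is not seen beyond them.

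To show the sequence around the transcription start of the genes that were 2-fold apart at PDL 55, the promoters of C1R, CD46 and CD59 follow, from 250 bases before to 50 after the first RefSeq start listed (GRCh38.p14; the expression files use hg19). They read 5′ to 3′ on the gene's strand, and capitals mark the GC box GGGCGG or its reverse complement CCGCCC.
C1R, chr12:7092396-7092695, minus strand: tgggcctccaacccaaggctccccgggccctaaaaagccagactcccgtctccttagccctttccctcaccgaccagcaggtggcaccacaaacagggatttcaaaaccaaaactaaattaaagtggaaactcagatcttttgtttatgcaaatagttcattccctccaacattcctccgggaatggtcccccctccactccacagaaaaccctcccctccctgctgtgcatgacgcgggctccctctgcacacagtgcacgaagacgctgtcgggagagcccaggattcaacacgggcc
CD46, chr1:207751788-207752087, plus strand: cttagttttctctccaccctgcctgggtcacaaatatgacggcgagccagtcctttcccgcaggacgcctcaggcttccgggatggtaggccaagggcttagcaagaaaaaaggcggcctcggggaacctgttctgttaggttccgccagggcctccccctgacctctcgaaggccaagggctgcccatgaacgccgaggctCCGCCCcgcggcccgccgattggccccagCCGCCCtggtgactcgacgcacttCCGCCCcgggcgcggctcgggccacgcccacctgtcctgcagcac
CD59, chr11:33736430-33736729, minus strand: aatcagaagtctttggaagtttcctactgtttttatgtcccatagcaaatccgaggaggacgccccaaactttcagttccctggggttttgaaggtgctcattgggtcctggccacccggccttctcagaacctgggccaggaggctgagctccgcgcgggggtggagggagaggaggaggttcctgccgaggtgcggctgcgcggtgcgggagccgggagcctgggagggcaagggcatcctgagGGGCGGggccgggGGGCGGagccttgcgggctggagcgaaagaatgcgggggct

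The C1R promoter holds 0 GC boxes, that of CD46 holds 3 and that of CD59 holds 2, while CD55 has 1, CFD 3 and CFI 0. Of 27305 RefSeq promoters of the same length, 44.6% hold at least 1 and 26.7% hold 2 or more. G and C make up 55.3% of the C1R window, 67.0% of the CD46 window and 64.3% of the CD59 window, against a median of 58.3% over all promoters. RefSeq lists 2 starts for C1R and for CD46 and 4 for CD59, and the other C1R window holds 0 GC boxes, the other CD46 window 3, and the other CD59 windows 2, 0 and 0. The windows differ in these letters, which is a description of sequence and says nothing of binding.

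Because AUF1 and HuR bind AU-rich RNA, the pentamer AUUUA was counted in the longest 3′ untranslated region (3′ UTR) among the protein-coding transcripts of each gene in GENCODE 29. CD55 holds 9 in 1356 bases, and 1.85% of 1677 genes with a 3′ UTR of similar length, 80% to 125% of its own, hold more. CD59 holds 10 in 7116 bases, where the median of 491 genes of like length is 17. CD46 holds 5 in 2036, C1S 2 in 381 and CFI 1 in 199, where 37.6%, 6.49% and 9.76% of genes of like length hold more. These 3′ UTRs need not belong to the transcripts that held the FPKM. The CD55 transcripts that held at least 10% of its sum were of 978, 1033 and 1297 nt. Each is shorter than the CD55 3′ UTR of 1356 bases used here, so none of them can hold it whole. The CD59 sum at PDL 55 and PDL 15 came from a 1775-nt transcript. The CD46 transcript used here was listed at 24.2 FPKM at PDL 55 and at 0 at PDL 15. C1R, C3, CFD and SERPING1 hold 0, in 3′ UTRs of 272 to 392 bases, a length at which 35.2% to 42.7% of genes hold at least 1. For the 3 genes with the most pentamers the first stretch of 30 bases that holds the most of them is given, with AUUUA in capitals.
CD46, bases 1771 to 1800 of the 3′ UTR: uucaaAUUUAauAUUUAuauuagagaucua
CD55, bases 761 to 790 of the 3′ UTR: guaauAUUUAUUUAuAUUUAUUUAugacag
CD59, bases 1167 to 1196 of the 3′ UTR: gcuguAUUUAauggcauaggcugacuuuug

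**Figure D1:**
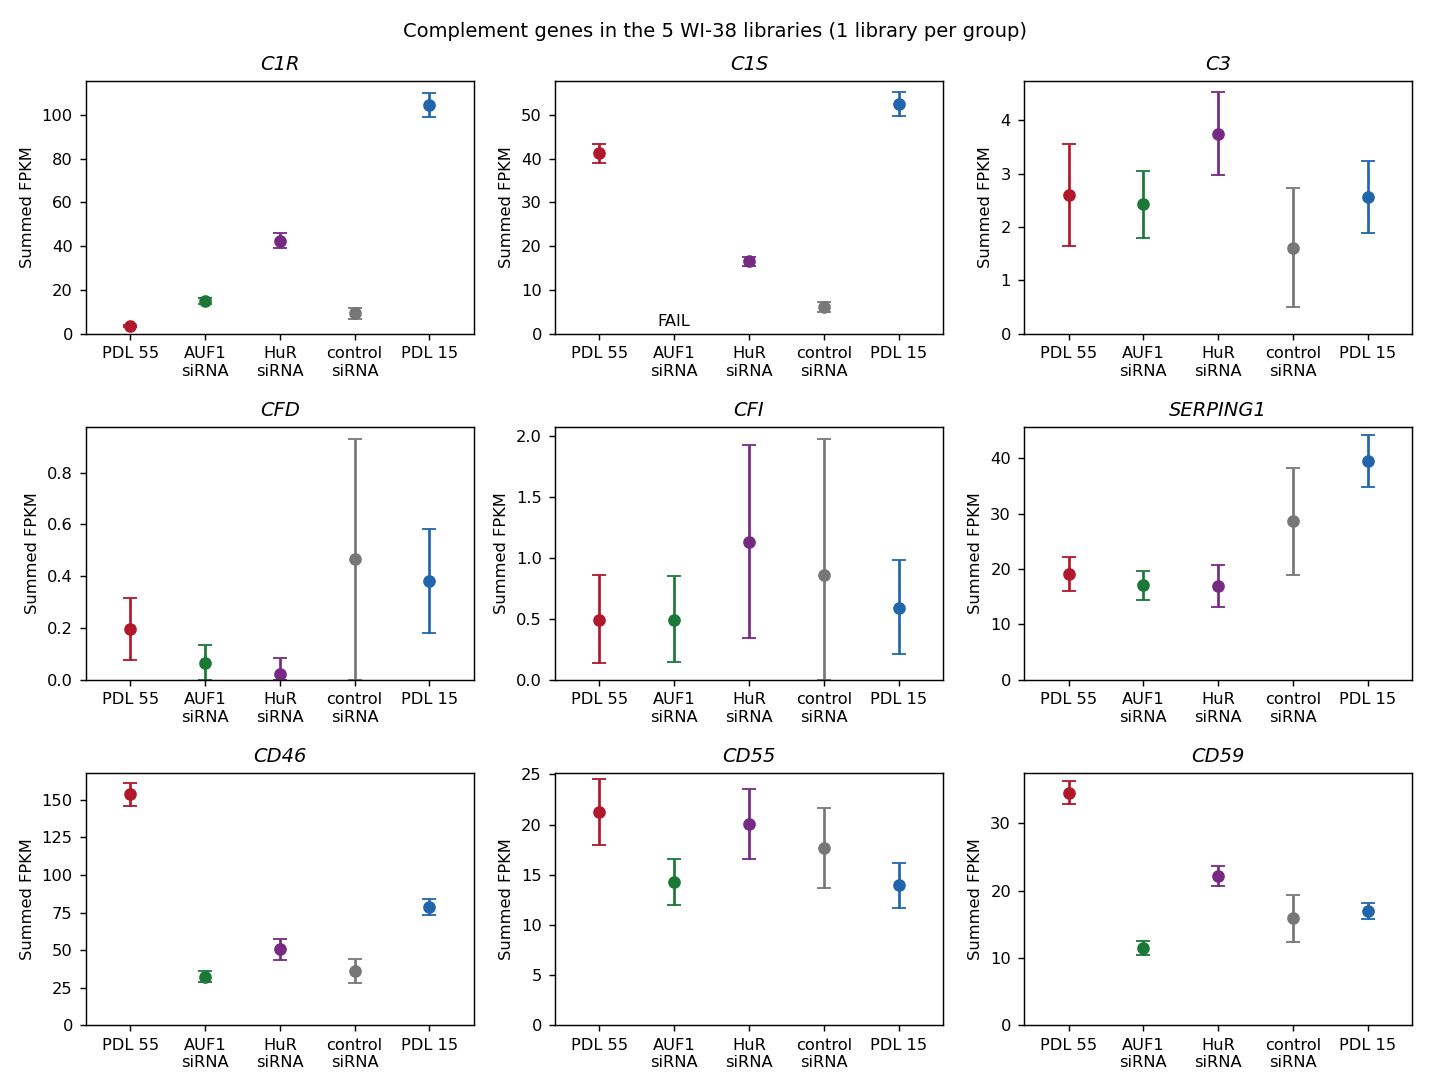
Summed FPKM of each of the 9 genes (vertical axes, linear from 0) in the 5 libraries, with deposited 95% bounds of the estimate as bars. C1R spans 3.53 to 104.7 FPKM, while CFD and CFI stay near or under 1 and the C1S estimate failed with AUF1 siRNA.

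C1R, the protease that activates C1S within C1, had the widest range of the 9 as a ratio of its highest to its lowest FPKM. It had 3.53 FPKM at PDL 55 (bounds 3.12 to 3.94), 14.9 with AUF1 siRNA (13.5 to 16.2), 42.5 with HuR siRNA (39.0 to 46.0), 9.34 with control siRNA (6.89 to 11.8) and 104.7 at PDL 15 (99.2 to 110.1). No 2 of these bounds overlap, and the order from high to low is PDL 15, HuR siRNA, AUF1 siRNA, control siRNA and PDL 55. Among genes of its library, C1R stood at percentile 40.7 at PDL 55 and 96.1 at PDL 15. Its annotated rows lie on hg19 chromosome 12, bases 7187513 to 7245203, beside C1S.

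Part of the C1R difference sits in a short transcript. ENST00000540610, a coding transcript of 519 nt, held 25.1 FPKM with HuR siRNA, 59.2% of the gene's sum, and 66.4 FPKM at PDL 15, 63.4% of it, and was listed at 0 in the other 3 libraries. The 1976-nt transcript ENST00000535233 had 3.53 FPKM at PDL 55, 10.9 with AUF1 siRNA, 17.3 with HuR siRNA, 5.62 with control siRNA and 38.3 at PDL 15. The long transcript keeps the order of the libraries over a narrower range. FPKM divides by length, so a short transcript with the same reads has a higher FPKM. Per the labels' protocols the sequenced fragments were size-selected by gel, and how this bears on the FPKM of the 519-nt transcript, or of the 474-nt CD46 transcript described later, was not tested.

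C1S, the protease that cleaves C4 and C2, had 41.2 FPKM at PDL 55 (38.9 to 43.4), 16.6 with HuR siRNA (15.6 to 17.5), 6.17 with control siRNA (5.05 to 7.30) and 52.5 at PDL 15 (49.8 to 55.2). With AUF1 siRNA the estimate failed for 11 of its 21 annotated transcripts, so no level is given there. The bounds of the 4 measured libraries do not overlap, and PDL 55 and PDL 15 are the high libraries. These sums rest on different transcripts. ENST00000443875, annotated for nonsense-mediated decay and not as coding, held 51.3% at PDL 55 and 46.9% at PDL 15. The coding ENST00000402681 had 20.1 FPKM at PDL 55, 27.9 at PDL 15 and all 16.6 with HuR siRNA. The control siRNA sum came from ENST00000406697 alone, listed at 0 at PDL 55, at PDL 15 and with HuR siRNA. C1S thus had a different order from its partner C1R, whose lowest library was PDL 55. At PDL 15 the authors' tables also place 176.9 FPKM in 3 assembled transcripts that lie at least 50% within the C1S span and are not in its sum. Of this, 171.2 FPKM is a 463-nt transcript that runs past the end of C1S, from base 7168516 to 7186313 of hg19 chromosome 12.

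C3, the central component, had 2.60 FPKM at PDL 55 (1.64 to 3.55), 2.43 with AUF1 siRNA (1.80 to 3.05), 3.76 with HuR siRNA (2.97 to 4.54), 1.62 with control siRNA (0.502 to 2.73) and 2.57 at PDL 15 (1.90 to 3.24). Only the bounds of HuR siRNA and control siRNA do not overlap. In these libraries, and with AUF1 siRNA, the whole C3 sum was of status LOWDATA and not OK. Between 69.6% and 100.0% of these values came from ENST00000461598, a 708-nt transcript no longer in GENCODE 29, and not from full-length C3. CFD, the alternative pathway protease factor D, had 0.196 FPKM at PDL 55, 0.0628 with AUF1 siRNA, 0.0226 with HuR siRNA, 0.465 with control siRNA and 0.382 at PDL 15. CFI, which degrades C3b and C4b, had 0.491 FPKM at PDL 55, 0.492 with AUF1 siRNA, 1.13 with HuR siRNA, 0.857 with control siRNA and 0.591 at PDL 15. The bounds of both overlapped in each of the 5 comparisons described later.

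SERPING1, which inactivates C1R and C1S, had 19.1 FPKM at PDL 55 (16.0 to 22.2), 17.1 with AUF1 siRNA (14.5 to 19.7), 16.9 with HuR siRNA (13.2 to 20.7), 28.6 with control siRNA (18.9 to 38.3) and 39.5 at PDL 15 (34.9 to 44.2). The first 3 overlap one another, and PDL 15 lies above them but overlaps control siRNA. The sums combine different transcripts. In the control siRNA library 50.8% came from the 569-nt ENST00000457869, which was at 4.34 FPKM with HuR siRNA and at 0 in the other 3, while the 634-nt ENST00000433668 held 39.4% to 62.1% elsewhere.

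CD46, a cofactor for the cleavage of C3b and C4b on the cell surface, had 153.6 FPKM at PDL 55 (145.8 to 161.3), 32.2 with AUF1 siRNA (28.6 to 35.9), 50.5 with HuR siRNA (43.7 to 57.4), 36.0 with control siRNA (27.9 to 44.1) and 78.9 at PDL 15 (73.5 to 84.3). PDL 55 is highest and PDL 15 next, each clear of every other library. A 474-nt coding transcript, ENST00000462968, made up 66.8% to 100.0% of each sum, at 129.4 FPKM at PDL 55, 32.2 with AUF1 siRNA, 33.8 with HuR siRNA, 29.6 with control siRNA and 78.9 at PDL 15. The 3326-nt ENST00000367042 was listed at 24.2 FPKM at PDL 55 and at 0 in the other 4, where assembled transcripts of 1637 to 2015 nt in the same span held 22.8 FPKM with AUF1 siRNA, 16.2 with HuR siRNA, 15.7 with control siRNA and 30.9 at PDL 15. Long CD46 transcripts were thus listed in each library, as annotated at PDL 55 and as assembled elsewhere.

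CD55, which speeds the decay of C3 convertases, had 21.2 FPKM at PDL 55 (18.0 to 24.5), 14.2 with AUF1 siRNA (12.0 to 16.5), 20.05 with HuR siRNA (16.5 to 23.6), 17.7 with control siRNA (13.7 to 21.6) and 13.9 at PDL 15 (11.7 to 16.1). Its ratio of highest to lowest FPKM was the smallest of the genes above the filter with a level in each library, PDL 55 and HuR siRNA lay clear of PDL 15 and AUF1 siRNA, and no assembled transcript lay in its span. CD59, which blocks assembly of the membrane attack complex, had 34.6 FPKM at PDL 55 (32.9 to 36.3), 11.5 with AUF1 siRNA (10.5 to 12.6), 22.2 with HuR siRNA (20.7 to 23.8), 15.9 with control siRNA (12.4 to 19.4) and 17.0 at PDL 15 (15.8 to 18.2). PDL 55 was high and HuR siRNA next, both clear of the rest. CD59 came from the 1775-nt ENST00000351554 alone in 4 libraries and for 52.4% with control siRNA. Its span is overlapped by AL049629.2, of which ENST00000533181 held 128.9 FPKM at PDL 55 and 73.4 at PDL 15, and the share of reads between them was not tested. Both CD55 and CD59 are held in the membrane by a glycosylphosphatidylinositol (GPI) anchor, which CD46 lacks.

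PDL 55 against PDL 15 asks what differs in the late culture. C1R was lower by far, CD46 and CD59 were higher, and C1S, C3, SERPING1 and CD55 were less than 2-fold apart. Of 7 genes measured, 3 were at least 2-fold apart, against 19.8% of 12944 genes, and 2 were higher, against 9.52%, and 1 lower, against 10.3%. The bounds did not overlap for 6 of 7, against 58.4% of all genes. The median of the 7 was 0.33, against 0 over all genes. As deposited, without the median set to 0, 2 of 7 were 2-fold apart, C1R and SERPING1 (-1.01), against 23.3%.

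C1R stood at -4.22, lower than all but 0.332% of genes, and it was also lower at PDL 55 with control siRNA as the reference library, at -1.24. Against PDL 15 it stood at -2.81 over transcripts of at least 600 nt and at -3.49 on FPKM times length. C1S stood at -0.02 and SERPING1 at -0.69. With every assembled transcript in the span C1S was at -2.13, and on transcripts of status OK SERPING1 was at -1.74, so both were then at least 2-fold lower. C1S was at 2.51 with control siRNA as the reference, where its level was 6.17 FPKM. The 3 membrane regulators were all on the higher side, with CD46 at 1.27, CD55 at 0.89 and CD59 at 1.30. CD46 stood at 0.79 once assembled transcripts were added. It stood at 2.20 on FPKM times length, and at 0.85 on FPKM times length with assembled transcripts. Over transcripts of at least 600 nt CD46 was at 4.96, but these were listed at 0 at PDL 15, so this is no measured difference. CD59 stood at 4.20 with assembled transcripts assigned to a gene, where 230.9 FPKM at PDL 55 was assigned to it and 72.1 FPKM at PDL 15 was not, and at 1.88 with both counted. CD46 was at 0.95 and CD59 at 0.98 as deposited, where the median gene was at -0.32.

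**Figure D2:**
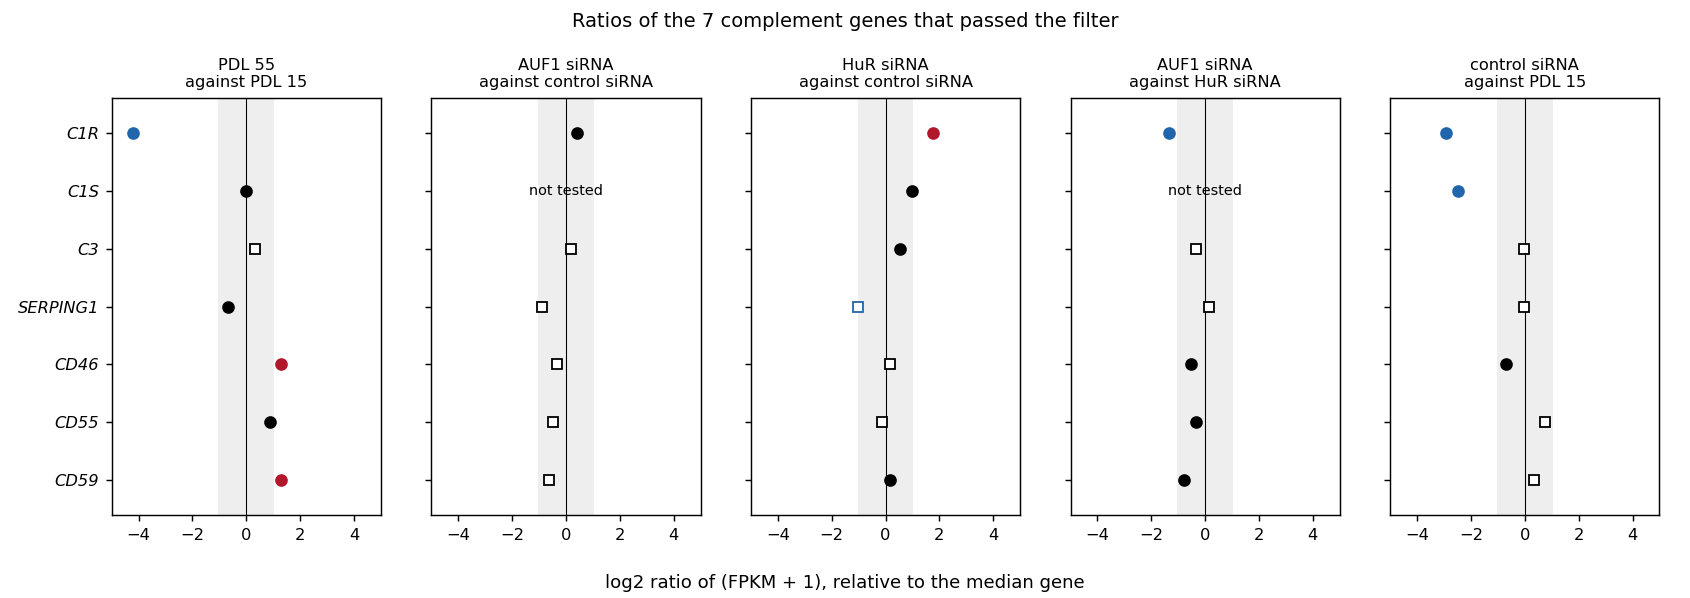
Log2 ratios of (FPKM + 1) relative to the median gene (horizontal axes) for the 7 genes that passed the filter, in 5 comparisons, with the grey band under 2-fold. Open squares mark 95% bounds that overlap, red at least 2-fold higher and blue at least 2-fold lower, and C1R leaves the band in 4 comparisons.

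The AUF1 knockdown was set against the control siRNA library. None of the 6 genes measured was 2-fold apart, against 21.5% of 13002 genes (10.3% higher, 11.2% lower). The bounds did not overlap for 1 of 6, C1R, against 41.3%. C1R stood at 0.43 and C3 at 0.20, while SERPING1 stood at -0.90, CD59 at -0.62, CD55 at -0.48 and CD46 at -0.34. The 4 inhibitors thus lay under the median gene, each with overlapping bounds, and SERPING1 turned to 0.56 once its 31.9 FPKM of assembled transcripts with AUF1 siRNA were added. CD46 ran from -3.11 over transcripts of at least 600 nt to 1.98 on transcripts of status OK. At that length its annotated transcripts were listed at 0 with AUF1 siRNA. Status OK left out its 474-nt transcript with control siRNA, which had 29.6 FPKM of status LOWDATA. Neither end is thus a measured difference of the gene. With 1 transcript per gene CD59 was at 0.16. C1R was at -0.26 there, but the 519-nt transcript used was listed at 0 in both libraries, so this is no measured difference. With PDL 15 as the reference C1R was at -2.52 and CD46 at -1.05.

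The HuR knockdown was set against the same control library, with the limit that the ELAVL1 bounds overlap. C1R was higher and SERPING1 lower, so that 2 of 7 genes were at least 2-fold apart, against 22.5% of 12984 genes (10.8% higher, 11.7% lower). As deposited these were C1R and C1S, 2 of 7, against 25.9%. The bounds did not overlap for 4 of 7, C1R, C1S, C3 and CD59, against 46.1%. C1R stood at 1.76, C1S at 0.98 and C3 at 0.55. C1S was at 0.03 with assembled transcripts added, at -0.10 on FPKM times length with them and at -1.53 with PDL 15 as the reference. C3 was at -0.30 on FPKM times length with assembled transcripts. All C3 FPKM of both libraries was of status LOWDATA, so on transcripts of status OK there is no measured C3 difference. SERPING1 stood at -1.03 with overlapping bounds, and CD46 lay at 0.17, CD55 at -0.14 and CD59 at 0.15. CD59 was at 0.95 with 1 transcript per gene and reached 0.98 at its highest under other settings. CD46 ran from -3.23 over transcripts of at least 600 nt to 2.49 on transcripts of status OK. At that length its annotated transcripts were listed at 0 with HuR siRNA. Status OK left out its 474-nt transcript with control siRNA. Neither end is thus a measured difference of CD46.

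The C1R difference with HuR siRNA depends on its short transcript and on the reference. It stood at 0.49 over transcripts of at least 600 nt, at 0.97 on FPKM times length, and at -1.20 with PDL 15 as the reference. SERPING1 stood at -0.74 with assembled transcripts added and at 0.01 with 1 transcript per gene, the one with the highest mean.

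AUF1 siRNA against HuR siRNA compares the knockdowns with each other, without the control library. C1R was lower with AUF1 siRNA, at -1.34, the 1 of 6 genes that was 2-fold apart, against 12.7% of 12997 genes (6.41% higher, 6.28% lower). The bounds did not overlap for 4 of 6, against 44.6%, and these were C1R, CD46 (-0.51), CD55 (-0.35) and CD59 (-0.77). Each of those 4 was lower with AUF1 siRNA than with HuR siRNA, but CD46 was at 0.15 on FPKM times length with assembled transcripts. Its annotated transcripts of at least 600 nt were listed at 0 in both libraries, so its 0.12 over these is no measured difference. Over transcripts of at least 600 nt C1R was at -0.09.

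Control siRNA against PDL 15 compares libraries with no named target. These libraries also differ in siRNA treatment, in coverage per FPKM and in the share of assembled transcripts. Their differences therefore set no scale for the other comparisons. C1R and C1S were lower with control siRNA, at -2.94 and -2.48, so 2 of 7 genes were at least 2-fold apart, against 25.3% of 12981 genes (13.7% higher, 11.6% lower). As deposited CD46 joined them at -1.11, 3 of 7, against 30.7%. CD46 ran from -3.01 on transcripts of status OK to 3.35 over transcripts of at least 600 nt. Status OK left out its 474-nt transcript with control siRNA. Over at least 600 nt its annotated transcripts were listed at 0 at PDL 15. Neither end is thus a measured difference of CD46. The bounds did not overlap for 3 of 7, the third being CD46 at -0.69, against 52.4%. CD55 stood at 0.74, CD59 at 0.32, and C3 and SERPING1 at -0.03. Comparisons that share the control siRNA or PDL 15 library are not independent of one another, and the C1R values above differ more between these 2 libraries than between either knockdown and control siRNA.

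**Figure D3:**
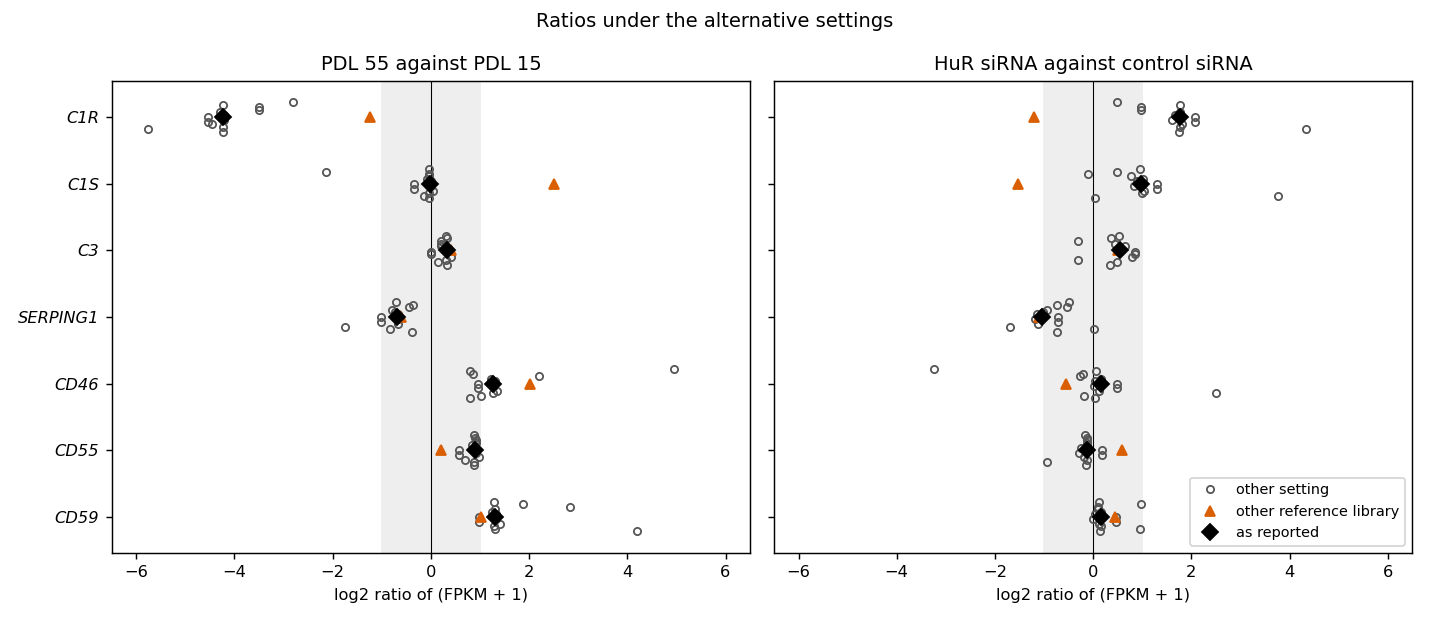
Log2 ratios of (FPKM + 1) of the 7 genes (horizontal axes) as reported (diamonds), under other settings (circles) and with the other reference library (triangles), for PDL 55 against PDL 15 and HuR siRNA against control siRNA. C1R stays lower at PDL 55, from -5.76 to -1.24, while with HuR siRNA it runs from -1.20 to 4.34.

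Of 54 other complement genes, 14 were measured at PDL 55 against PDL 15, and most of the rest were listed under the filter. A listed 0 is no measure of absence in these tables, since THY1, a fibroblast marker, was also listed at 0 at PDL 55 and PDL 15. Of the recognition molecules and proteases 7 of 19 were measured, of the terminal components 1 of 7, of the regulators 6 of 18 and of the receptors 0 of 10. C1QA, C1QB and C1QC, the chains of the C1q subunit that C1R and C1S join, had at most 0.206 FPKM, and C4A and VTN were listed at 0. In the terminal group only C9 passed, at 118.5 to 221.8 FPKM, and all of it came from the 560-nt noncoding transcript ENST00000483232, so it is no measure of C9 mRNA.

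At PDL 55 the median of the 14 was -0.15, and 2 passed the 2-fold limit upward and 3 downward, against 9.52% and 10.3% of all genes. COLEC12, a scavenger receptor with a collectin domain, had 0.789 FPKM at PDL 55 and 12.1 at PDL 15 (-2.55), and CFB, the protease of the alternative C3 convertase, had 0.357 at PDL 55 and 4.12 at PDL 15 (-1.59). Both were lower at PDL 55, as C1R was. COLEC10, a collectin, had 27.6 FPKM at PDL 55 and 3.77 at PDL 15 (2.91), and C1RL, a relative of C1R, had 11.9 at PDL 55 and was listed at 0 at PDL 15. All C1RL FPKM came from the 449-nt transcript ENST00000545280, and 1.60 of the CFB FPKM at PDL 15 came from a transcript with a retained intron.

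With AUF1 siRNA against control siRNA 1 of 15 was higher, C4BPB (2.58 FPKM with AUF1 siRNA against 0.546 with control siRNA), and 0 lower, against 10.3% higher and 11.2% lower among all genes. With HuR siRNA, where 10.8% of all genes were higher and 11.7% lower, 1 of 16 was higher, COLEC10, at 8.16 FPKM and listed at 0 with control siRNA, and 2 lower, COLEC12 (2.48 FPKM with HuR siRNA and 5.14 with control siRNA) and C1RL, listed at 0 with HuR siRNA and at 13.9 with control siRNA. With AUF1 siRNA against HuR siRNA, 3 of 15 were higher, COLEC12 (1.29), the pentraxin PTX3 (1.05), which binds C1q, and C1RL, listed at 0 with HuR siRNA, and 1 lower, COLEC10 (-1.89), against 6.41% higher and 6.28% lower among all genes. With control siRNA against PDL 15, 1 of 15 was higher, C1RL, listed at 0 at PDL 15, and 2 were lower, among them COLEC10, listed at 0 with control siRNA, against 13.7% higher and 11.6% lower among all genes.

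**Figure D4:**
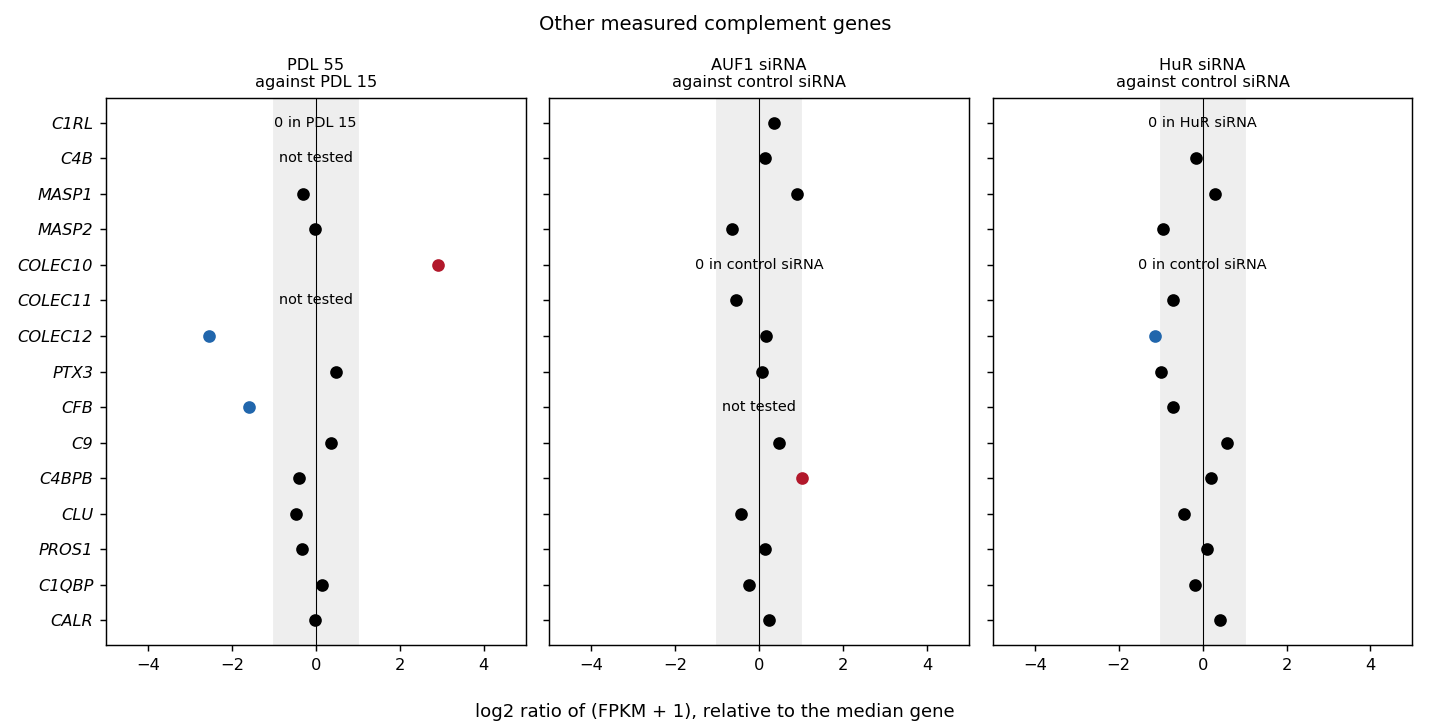
Log2 ratios of (FPKM + 1) relative to the median gene (horizontal axes) for 15 other complement genes that passed the filter, in 3 comparisons, with the grey band under 2-fold. COLEC12 and CFB lie to the left of the band at PDL 55, and genes listed at 0 in a library are marked in place of a ratio.

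Interferon gamma, interleukin 6 family and interleukin 1 signals are known to induce complement genes, and 18 genes of cytokine signalling were followed. These are receptors, kinases and transcription factors, with the ligand IL6 and the tumour necrosis factor receptor TNFRSF1A among them. At PDL 55 against PDL 15, 1 of 18 was higher and 4 lower, with a median of -0.12, where 9.52% of all genes were higher and 10.3% lower. OSMR, the oncostatin M receptor, had 107.1 FPKM at PDL 55 and 43.0 at PDL 15 (1.62). The lower ones were the interleukin 1 receptor IL1R1 (3.94 FPKM at PDL 55 and 17.6 at PDL 15), the transcription factors IRF2 (-1.25) and NFKB1 (-1.23), and the kinase JAK2 (-1.01).

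With AUF1 siRNA against control siRNA JAK1 was higher (1.15) and NFKB1 lower (-1.81), 1 of 18 each way, where 10.3% of all genes were higher and 11.2% lower. With HuR siRNA JAK1 (1.23) and the receptor TNFRSF1A (1.16) were higher and STAT2 lower (-1.17), 2 and 1 of 18, where 10.8% of all genes were higher and 11.7% lower. JAK1 was also lower in control siRNA than at PDL 15 (-1.41), as was IL6 (-1.54). Both JAK1 values of the knockdowns share that control library.

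CD55 and CD59 need the GPI anchor, and 22 of 27 genes of its synthesis were measured. At PDL 55 against PDL 15, 2 were higher, DPM2 (14.8 FPKM at PDL 55 and 5.77 at PDL 15), part of the enzyme that makes dolichol phosphate mannose, and PIGS (1.03), part of the transamidase that attaches the anchor, and 1 lower, PIGC (-1.33). The median of the list was 0.44, and 9.52% of all genes were higher and 10.3% lower. With AUF1 siRNA against control siRNA 3 of 22 were higher and 1 lower, with a median of 0.10, where 10.3% of all genes were higher and 11.2% lower. With HuR siRNA 3 were higher and 2 lower, with a median of 0.02, where the shares of all genes were 10.8% and 11.7%.

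The genes whose levels run most like each of the 3 genes 2-fold apart at PDL 55 were taken by Pearson correlation of log2(FPKM + 1) over the 5 libraries, among 7130 genes that averaged 5 FPKM or more. They were HNRNPF, FNDC3A and ZDHHC20 for C1R, PDCD4, REST and SEL1L for CD46, and ATP6V1G1, ASS1 and EIF4G3 for CD59. With 5 points that share depth and scaling between genes, 140 genes reached 0.95 for C1R, 89 for CD46 and 35 for CD59, so this is a description only. HNRNPF had 8.48 FPKM at PDL 55, 14.7 with AUF1 siRNA, 22.2 with HuR siRNA, 12.2 with control siRNA and 30.2 at PDL 15, the library order of C1R over a narrower range.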

How the data were processed

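Total RNA of 5 WI-38 cultures was amplified as cDNA and sequenced, per the labels' protocols, and TopHat2 2.0.6, Cufflinks 2.0.2, Cuffdiff and hg19 are named in the submitters' processing notes. The authors deposited 1 table per library with FPKM, 95% bounds, status and a coverage signal per transcript, per the file headers. Read depth, strand, annotation release and siRNA dose and time are not stated in the labels or headers, so overlapping and antisense genes cannot be told apart, such as those at CD59. The members and gene lists were chosen with earlier results of these data known.

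Annotated transcripts were assigned to genes through GENCODE 29, identifiers or position (97.1% of 160485), and FPKM was summed per gene. Genes needed a mean FPKM of at least 1, and a gene with a transcript of status FAIL in a library was not tested there. Ratios used a pseudocount of 1 and were centred on the median gene. The genes named were the 9, the siRNA targets, up to 6 genes per list and comparison at least 2-fold apart, transcripts with at least 10% of a gene's FPKM, and the 3 most alike genes. The ratio code was checked on simulated data. Python 3.11.15, pandas 2.3.3 and numpy 2.4.6 were used. Alternatives changed the transcripts summed, status, pseudocount, filter, scaling and reference library. Values of some listed genes are not reported here, although the counts include them.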

Additional observations from a re-analysis of the deposited data

Results flagged for a closer look

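Transcripts assembled from reads in the span of a gene were not part of the sums in the comparisons, and some held more FPKM, beyond the summed 95% bounds, than in the library compared with. At SERPING1 they held 5.07 FPKM at PDL 55 against 0 at PDL 15, 31.9 with AUF1 siRNA against 0 with control siRNA, and 4.14 with HuR siRNA. At CD59 they held 230.9 FPKM at PDL 55 and 72.1 at PDL 15, and 160.5 with HuR siRNA and 58.3 with control siRNA, in 1 transcript of 507 to 702 nt per library in a span that another gene overlaps. At CD46 they held 22.8 FPKM with AUF1 siRNA and 15.7 with control siRNA.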

How the results depend on the processing

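Of 444 ratios of the members under other settings, 347 stayed within the interval of the summed bounds, 95 moved out of it and 2 reversed a difference of at least 2-fold, which were C1R with HuR siRNA against PDL 15 in place of control siRNA (-1.20) and SERPING1 with HuR siRNA with 1 transcript per gene (0.012). C1R was lower at PDL 55 under all 14 settings and CD46 and CD59 were higher under all 14, with the 2-fold difference kept under 9 for CD46 and 12 for CD59. The count of members 2-fold apart at PDL 55 stayed within 1.5 times of 3, where the share of all genes ran from 8.71% to 31.9%. For AUF1 siRNA against control siRNA it was 0, against 21.5% of all genes. It was 2 on status OK transcripts (27.6% of all genes) and 1 with a mean FPKM of at least 5 (18.9%). It was 2 with PDL 15 as the reference (19%) and 1 over transcripts of at least 600 nt (19.8%). For HuR siRNA it was 2, against 22.5% of all genes. It was 3 on status OK transcripts (28% of all genes), with a pseudocount of 0.1 (29.5%), with equal protein-coding sums (22.5%) and with PDL 15 as the reference (17.4%). It was 1 with assembled transcripts added by assignment (17.5%) or by span, and 1 over at least 600 nt. The share of all genes is not given for the span and the length limit. It was 0 on FPKM times length without assembled transcripts (20.4%) and with them (12.7%). For AUF1 siRNA against HuR siRNA it was 1, against 12.7% of all genes. It was 2 with assigned assembled transcripts and on status OK transcripts, and 3 with all assembled transcripts in the span. It was 0 on FPKM times length with or without assembled transcripts and over at least 600 nt. For control siRNA against PDL 15 it was 2, against 25.3% of all genes, but 4 with 1 transcript per gene and on status OK transcripts. Counts within 1.5 times of that 2 are not listed, such as 3 as deposited. Shares of all genes under the other settings are not given for the last 2 comparisons. These moves in the count can therefore not be set against all genes. Bounds combined as the root of summed squares left 3 members of AUF1 siRNA clear of control siRNA in place of 1. The share of all genes clear on such bounds was not computed. FPKM times length, all assembled transcripts in the span and the length limit were chosen after seeing the data. The cause of these moves was not tested. Without replicates no setting that leaves out a library exists within a group. No paired analysis was possible because each group has 1 library.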
